A study of Mus musculus with 6 samples.

Results

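The genes of antigen presentation by MHC class I and class II were examined in full-thickness dorsal skin of mice treated with rebamipide. They were chosen by symbol from the deposited expression table, as every gene whose name begins with H2- or Tapbp or is B2m, Tap1, Tap2, Cd74, Ciita or Nlrc5. This gave 46 of the 21959 genes in the table, of which 33 belong to class I, 12 to class II and 1, H2-Ke6, to neither, since it encodes a steroid dehydrogenase that lies among the H2 genes. The expression filter was passed by 31 of them, 21 of class I and 10 of class II.

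Bulk RNA-seq was performed on dorsal skin of male C57BL/6 mice that were 7 weeks old. The back was shaved in telogen, the resting phase of the hair cycle, and was treated daily for 7 days. The vehicle group (3 mice) received 30% dipropylene glycol in 70% water, and the rebamipide group (3 mice) received 3% rebamipide, a mucosal protective drug, in the same vehicle. All animals were wild type, so by label the groups differed in the drug alone, and the whole thickness of the skin was taken, with epidermis, dermis, dermal fat and any muscle attached.

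MHC class I molecules pair a heavy chain with beta 2 microglobulin and display peptides from inside the cell on almost every nucleated cell. The peptides are cut by the proteasome, carried into the endoplasmic reticulum by the TAP transporter and loaded with the help of tapasin. MHC class II molecules are made mainly by dendritic cells, macrophages and B cells, are held by the invariant chain Cd74 until they reach the endosome, and there exchange a fragment of it for foreign peptide under the action of H2-DM. NLRC5 drives the class I genes and CIITA the class II genes. In skin the class II molecules are known above all from Langerhans cells in the epidermis and from dermal dendritic cells and macrophages.

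Both sets of promoters carry a shared module, the X and Y boxes, which CIITA and NLRC5 use through the proteins RFX and NF-Y, and class I promoters add an enhancer with a kappa B site and a site for interferon response factors. The windows below show the 250 bases upstream of the annotated start sites of 4 class I genes and 2 class II genes, chosen as abundant genes of each class, with H2-Q10, the gene that rose most. No window was used here for H2-Ab1, H2-T24, Cd74, Ciita and Nlrc5. They are from RefSeq on the GRCm38.p6 build and are written 5′ to 3′ on the strand of the gene. Capitals mark matches, on either strand, to 4 letter patterns. The X box core was searched as AG, any 2 bases, AC, any base and GATG, the Y box as ATTGG, the interferon response core as GAAA, any 2 bases and GAAA, and the kappa B site of enhancer A as GGGG, ATT and CCCC with no gap. The matches do not overlap in these windows.
H2-K1 (chr17:34000334-34000583, minus strand): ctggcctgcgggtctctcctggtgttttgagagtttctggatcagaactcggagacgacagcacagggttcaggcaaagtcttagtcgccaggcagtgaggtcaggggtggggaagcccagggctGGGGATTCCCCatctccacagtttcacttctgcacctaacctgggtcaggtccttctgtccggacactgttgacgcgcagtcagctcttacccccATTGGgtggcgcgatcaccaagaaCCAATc
H2-D1 (chr17:35262844-35263093, plus strand): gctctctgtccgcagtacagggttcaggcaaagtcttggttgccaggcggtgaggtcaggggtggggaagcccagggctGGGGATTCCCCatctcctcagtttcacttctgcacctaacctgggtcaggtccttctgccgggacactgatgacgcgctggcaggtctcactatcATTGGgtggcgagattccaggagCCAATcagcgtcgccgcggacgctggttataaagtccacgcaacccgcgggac
H2-Q10 (chr17:35469839-35470088, plus strand): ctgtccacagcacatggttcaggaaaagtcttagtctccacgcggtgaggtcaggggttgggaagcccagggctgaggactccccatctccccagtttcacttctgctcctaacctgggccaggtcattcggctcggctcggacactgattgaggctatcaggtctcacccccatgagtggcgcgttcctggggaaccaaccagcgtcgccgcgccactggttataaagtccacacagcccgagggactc
B2m (chr2:122147437-122147686, plus strand): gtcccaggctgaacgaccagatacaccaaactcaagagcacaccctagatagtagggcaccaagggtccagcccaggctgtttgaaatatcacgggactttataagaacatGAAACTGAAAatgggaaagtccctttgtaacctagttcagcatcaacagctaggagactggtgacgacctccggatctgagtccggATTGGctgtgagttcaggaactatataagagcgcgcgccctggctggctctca
H2-Eb1 (chr17:34305617-34305866, plus strand): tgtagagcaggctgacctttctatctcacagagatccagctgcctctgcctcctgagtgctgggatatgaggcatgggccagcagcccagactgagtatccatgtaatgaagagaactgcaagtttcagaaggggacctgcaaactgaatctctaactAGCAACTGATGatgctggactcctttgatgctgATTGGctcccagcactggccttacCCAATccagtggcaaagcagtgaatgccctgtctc
H2-Aa (chr17:34287824-34288073, minus strand): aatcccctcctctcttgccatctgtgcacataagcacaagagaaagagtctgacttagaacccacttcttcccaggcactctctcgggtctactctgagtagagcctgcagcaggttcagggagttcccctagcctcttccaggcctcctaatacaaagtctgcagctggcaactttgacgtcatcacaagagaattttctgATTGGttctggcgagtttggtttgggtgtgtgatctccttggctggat

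Of the 46 genes, 34 had a promoter window in the RefSeq table, 25 of class I, 8 of class II and H2-Ke6. H2-K1, H2-M9 and H2-DMa had 2 windows each, which made 27 windows of class I and 9 of class II. The X box core was present in 4 of the 9 class II windows (H2-DMb1, H2-Eb1, H2-Eb2 and H2-Oa) and in 4 of the 27 class I windows (H2-M10.1, H2-M10.2, H2-M10.5 and H2-M10.6), against 0.816% of all 32851 windows in the table. The class II matches began at positions -141 to -92 from the start site and the class I matches farther out, at -223 to -216. The Y box, a short pattern found in 33.8% of all windows, was present in 8 of 9 class II windows, all but 1 of the H2-DMa windows, and in 24 of 27 class I windows. The kappa B pattern, found in 10 windows in all (0.0304%), was present in H2-K1, H2-D1 and H2-Q6. The interferon response core, found in 2.98% of all windows, was present in B2m, H2-T22 and H2-T23. The H2-Q10 window held none of the 4 patterns. These matches describe the letters only, and a window without a match may hold a variant that the fixed pattern misses.

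Between 38676018 and 39915276 reads were counted per vehicle library and between 32709801 and 34706852 per rebamipide library. The top 10 genes held 7.2% to 10.6% of them under vehicle and 20.2% to 30.4% under rebamipide, so counts were scaled with TMM factors and are given as normalized CPM, the reads of a gene scaled to library size. Mitochondrially encoded genes made up 2.59% to 5.36% of the reads under vehicle and 13.3% to 22% under rebamipide, and their part in the results was not tested. The skin label was checked against keratinocyte genes. Krt14, a keratin of the basal epidermis, had 26099 to 64371 counts in the vehicle libraries, 10954 in rebamipide 1, 6102 in rebamipide 2 and 0 in rebamipide 3. Rebamipide 3 thus lacked this defining marker of epidermis, and values without it are given beside the genes of the set and of the pathway lists that passed the test. Leaving this library out also lowered the calls over the whole table, from 2093 genes higher and 968 lower to 1012 and 382 (adjusted p-value under 0.05, edgeR). What a lost call owes to this library or to having fewer libraries was not tested. With 3 mice per group the p-values measure the spread between these animals.

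At an adjusted p-value under 0.05 (edgeR quasi-likelihood test, Benjamini-Hochberg adjustment over 14875 genes), 2 of the 21 class I genes tested rose, H2-Q10 and H2-T24, and 0 fell. Of all genes tested 14.1% rose and 6.51% fell. Of the 10 class II genes tested 0 rose and 0 fell. At an unadjusted p-value under 0.05 edgeR gave 4 class I genes higher (20.9% of all genes) and 1 lower (18.8% of all genes), and 0 class II genes in either direction, while DESeq2 at an adjusted p-value under 0.05 gave 2 class I genes higher (15.8% of all genes), 2 lower (H2-M2 and H2-M5, against 15.1% of all genes) and 0 class II genes. Fitted log2 fold changes were negative for 10 of 10 class II genes, with a median of -0.76. For class I 13 were positive and 8 negative, with a median of 0.15, and the median over all genes tested was -0.17. With scaling by total counts alone these medians were -1.30 for class II, -0.43 for class I and -0.78 for all genes, so the class I median changed sign with the scaling. A change of scaling shifts all genes nearly alike, so it could not test the distance between the classes.

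**Figure D1:**
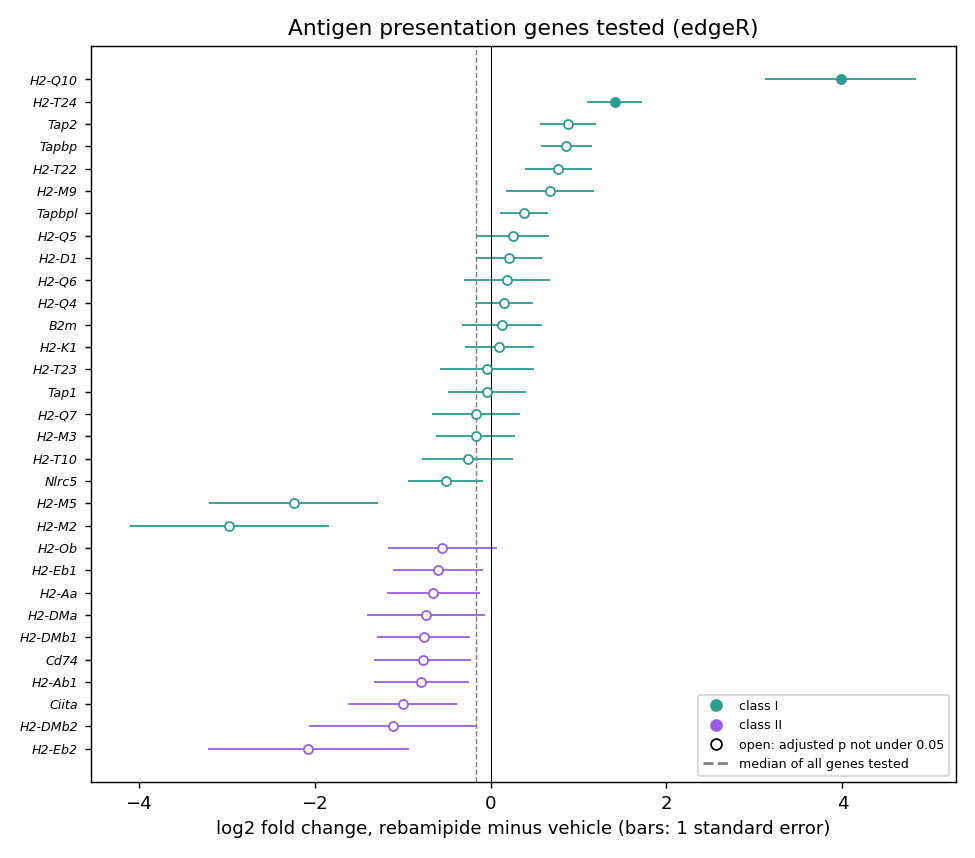
Log2 fold change, rebamipide minus vehicle, of the 31 genes tested (edgeR, bars 1 standard error), with class I above and class II below, filled points for an adjusted p-value under 0.05 and a dashed line at the median of all genes, -0.17. H2-Q10 (3.98) and H2-T24 (1.41) are the filled points, and the 10 class II genes lie between -2.07 and -0.55.

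The light chain and the classical heavy chains were the most abundant class I transcripts. B2m, which encodes beta 2 microglobulin, had 355.7, 767.1 and 1023 CPM in vehicle 1 to 3 and 1075, 689.4 and 588.7 CPM in rebamipide 1 to 3. The groups overlapped, and the log2 fold change was 0.13 ± 0.46 (SE, adjusted p = 0.845, edgeR). H2-K1, a classical heavy chain that presents peptide to CD8 T cells, had 340.8, 594.9 and 792.3 CPM under vehicle and 818.2, 577.9 and 458.4 CPM under rebamipide. H2-D1, the other classical heavy chain of this strain, had 431.1, 715.5 and 977.1 CPM against 1053, 739.4 and 662.9 CPM. The log2 fold changes of 0.10 ± 0.39 for H2-K1 (adjusted p = 0.863, edgeR) and 0.21 ± 0.38 for H2-D1 (adjusted p = 0.701) were smaller than the spread between mice, and vehicle 1 was the lowest and vehicle 3 among the highest libraries for all of these genes. The FPKM ratio of H2-K1 to B2m lay between 0.223 and 0.28 in the 6 libraries, with the groups overlapping, while that of H2-D1 to H2-K1 was 1.44, 1.37 and 1.41 under vehicle and 1.47, 1.46 and 1.65 under rebamipide.

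The loading genes did not move as a block. Tapbp, which encodes tapasin, had 66.92, 101.2 and 127.5 CPM under vehicle and 215.5, 160.4 and 162.4 CPM under rebamipide. Tap2, one chain of the peptide transporter, had 10.44, 16.59 and 21.55 CPM against 34.11, 23.89 and 31.29 CPM. For both genes the rebamipide libraries exceeded all vehicle libraries, and neither passed the test (log2 fold change 0.86 ± 0.29 with adjusted p = 0.0791 for Tapbp and 0.88 ± 0.32 with adjusted p = 0.0965 for Tap2, edgeR). Tap1, the partner chain, had 24.26, 41.06 and 37.8 CPM under vehicle and 55.45, 23.03 and 21.52 CPM under rebamipide, with a log2 fold change of -0.04 ± 0.44 (adjusted p = 0.947, edgeR). The FPKM ratio of Tap2 to Tap1 was 0.623, 0.585 and 0.826 in the vehicle libraries and 0.891, 1.5 and 2.11 in the rebamipide libraries. The groups did not overlap, with a narrow gap between 0.826 and 0.891. This ratio was not tested, and the share of all genes that separate in the same way relative to Tap1 was not computed. Tapbpl, a tapasin-like peptide editor, had a log2 fold change of 0.38 ± 0.27 (adjusted p = 0.325, edgeR). Nlrc5, the class I transactivator, had 17.19, 40.06 and 42.61 CPM against 31.81, 22.88 and 15.27 CPM, overlapping groups with a log2 fold change of -0.51 ± 0.43 (adjusted p = 0.401, edgeR). Tap1, Tapbp and Tapbpl overlap other genes in the table (Psmb9, Zbtb22 and Vamp1), and whether the counting used strand is not given in the sources used here.

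**Figure D2:**
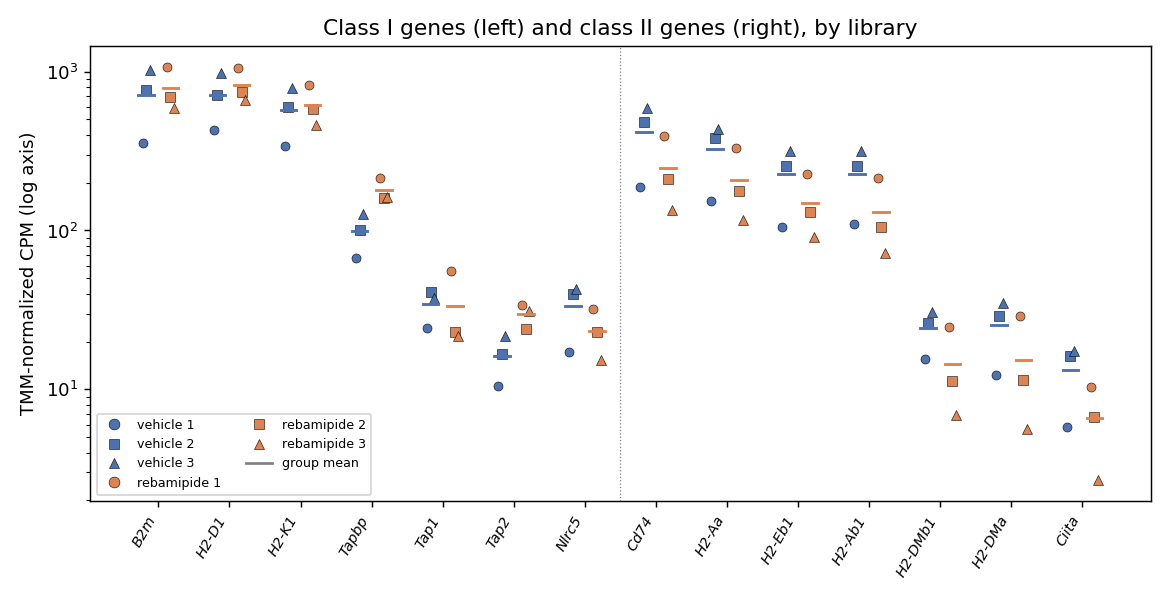
Normalized CPM (log axis) of 7 class I genes (left) and 7 class II genes (right) in each library, with bars at group means. For the class II genes rebamipide 1 lies within the range of the vehicle libraries and rebamipide 3 is the lowest of its group, as for Cd74 with 134.9 CPM.

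Among the class Ib heavy chains, which are less polymorphic and more specialised than H2-K1 and H2-D1, H2-Q10 (ENSMUSG00000067235, chr17:35780986-35785460, plus strand, GRCm39) showed the greatest change of all 31 genes. H2-Q10 encodes a secreted class I molecule that is known from the liver and serum. It had 2.364, 6.884 and 22.49 CPM in the vehicle libraries and 113.8, 185.9 and 201.1 CPM in the rebamipide libraries, from 118 to 1052 and from 3457 to 5270 counts. The 3 rebamipide libraries exceeded all 3 vehicle libraries, and the vehicle libraries themselves spread widely. The mean was 10.58 ± 10.6 CPM under vehicle and 167 ± 46.6 CPM under rebamipide (SD, n = 3 each), with a fitted fold change of 15.8. On the log2 scale the change was 3.98 ± 0.86 (adjusted p = 0.0269, edgeR). In the rebamipide libraries H2-Q10 reached an FPKM of 24.31 to 34.92, within reach of H2-T22 and Tapbp, and its FPKM ratio to H2-K1 went from 0.00469, 0.00782 and 0.0192 in the vehicle libraries to 0.094, 0.217 and 0.296. Without rebamipide 3 the log2 fold change was 3.83 (adjusted p = 0.051, edgeR), without vehicle 2 3.69 (adjusted p = 0.12) and without rebamipide 2 3.90 (adjusted p = 0.0935). It was 5.17 without vehicle 3 (adjusted p = 0.0233), the library with the highest vehicle level, and 3.35 when only library totals were scaled (adjusted p = 0.0298, edgeR in each). Over all alternatives and all left-out libraries the adjusted p-value ran from 2.75e-15 to 0.12.

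Reads of H2-Q10 could in part come from close relatives. Of the 100-base stretches of its GENCODE vM21 transcripts 8.01% occur in other genes, most often in H2-Q7, with 5.81%. H2-Q7, which encodes a Qa-2 molecule, had 4.808, 12.18 and 14.01 CPM under vehicle and 13.7, 6.508 and 7.594 CPM under rebamipide, a log2 fold change of -0.16 ± 0.50 (adjusted p = 0.834, edgeR). Hepatocyte genes, a list added after the values were seen, stayed at low counts. Alb, the albumin gene, had 1.522, 4.142 and 8.296 CPM in the vehicle libraries and 4.577, 1.052 and 0.229 CPM in the rebamipide libraries, and the other 5 (Apoa1, Apoa2, Ttr, Ahsg and Fgb) were under 1 CPM in every library, of which Apoa2, at no more than 0.8014 CPM, passed the test on the higher side. The adipocyte, endothelial and brown adipocyte lists all moved with H2-Q10. The adipocyte sum was 414.1, 696.6 and 1160 CPM under vehicle and 2908, 3727 and 4691 CPM under rebamipide. The endothelial sum was 202.7, 292.6 and 471.4 CPM against 968.7, 1200 and 1409 CPM. The brown adipocyte sum was 25.42, 47.41 and 80.59 CPM against 4436, 12190 and 9828 CPM. Of the 5 brown adipocyte genes 4 rose, against 14.1% of all genes. Ucp1, the uncoupling protein that defines brown fat, was at 0 counts in every vehicle library. The part of these cell types in the change of H2-Q10 was not tested. In bulk tissue fewer cells of a type and less RNA per cell cannot be told apart.

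H2-T24, a class Ib heavy chain of the T region (ENSMUSG00000053835, chr17:36316587-36331452, minus strand, GRCm39), had 5.388, 7.472 and 7.184 CPM under vehicle and 23.71, 13.56 and 16.1 CPM under rebamipide. The groups did not overlap, and the fold change was 2.66, or 1.41 ± 0.31 on the log2 scale (adjusted p = 0.0281, edgeR). None of its 100-base stretches occurred in another gene (0%). The edgeR call was lost when only library totals were scaled (0.84 on the log2 scale, adjusted p = 0.108), in both limma fits on log2 FPKM, with a replicate block (1.38, adjusted p = 0.0815, edgeR), and in edgeR without any one library other than rebamipide 1. The log2 fold change was then 1.26 without vehicle 1 (adjusted p = 0.0758), 1.48 without vehicle 3 (adjusted p = 0.0621) and 1.49 without rebamipide 3 (adjusted p = 0.06). Without vehicle 2 and without rebamipide 2 it was 1.48 and 1.58, in fits where edgeR called 0 and 1 genes higher in the whole table. DESeq2 called it with every library left out in turn, and adjusted p-values ran from 0.00035 to 0.12 over all alternatives.

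H2-T22, whose product is recognised by some gamma delta T cells, had 42.27, 83.19 and 111.5 CPM under vehicle and 169.1, 119.7 and 116.4 CPM under rebamipide. All 3 rebamipide libraries exceeded all 3 vehicle libraries by a narrow margin, and the log2 fold change of 0.77 ± 0.38 did not pass the test (adjusted p = 0.179, edgeR). H2-T22 was thus the fifth class I gene, with H2-Q10, H2-T24, Tapbp and Tap2, whose rebamipide libraries all lay above the vehicle libraries. This made 5 of 21 for class I against 24.5% of all genes, and 0 of 10 for class II. In the other direction 1 class I gene, H2-M2, and 0 class II genes lay lower without overlap, against 24% of all genes.

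H2-M2 had 1.683, 6.071 and 13.45 CPM in the vehicle libraries and 1.449, 1.169 and 0.07633 CPM in the rebamipide libraries, the last from 2 counts. Its log2 fold change of -2.97 ± 1.13 did not pass the test in edgeR (adjusted p = 0.105) and did in DESeq2 (-3.01, adjusted p = 0.015). H2-M5 followed with -2.24 ± 0.96 (adjusted p = 0.135, edgeR, and 0.0466, DESeq2), with overlapping groups. Without rebamipide 3 the log2 fold change of H2-M2 was -2.42 (adjusted p = 0.138, edgeR, and 0.0191, DESeq2) and that of H2-M5 -1.73 (adjusted p = 0.201, edgeR, and 0.0945, DESeq2). Single libraries also moved the size. H2-M2 was at -2.08 without vehicle 3 (adjusted p = 0.251, edgeR, and 0.169, DESeq2), and H2-M5 at -3.48 without rebamipide 1 (adjusted p = 0.0526, edgeR). Both genes had their lowest level in rebamipide 3, the library at 0 counts of Krt14. The 5 genes of the basal keratinocyte list were all lower in every rebamipide library, at a summed 2321 to 3806 CPM under vehicle and 1033, 556.6 and 1.755 CPM under rebamipide, 0 of 5 passing the test (edgeR, 1 of 5 at an unadjusted p-value under 0.05). Its part in the levels of H2-M2 and H2-M5 was not tested.

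The other class Ib genes had overlapping groups. H2-T23, which encodes Qa-1, the ligand of the inhibitory receptor NKG2A, had a log2 fold change of -0.04 ± 0.53, and H2-M3, which presents peptides with an N-formyl group, one of -0.17 ± 0.45. H2-Q4, H2-Q5, H2-Q6, H2-T10 and H2-M9 had log2 fold changes from -0.26 (H2-T10) to 0.68 (H2-M9), with adjusted p-values of 0.334 (H2-M9) to 0.798 (H2-Q6) in edgeR. H2-Q5, H2-Q6 and H2-Q7 share 14%, 10.8% and 12% of their 100-base stretches with other genes, so their separate levels are uncertain.

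**Figure D3:**
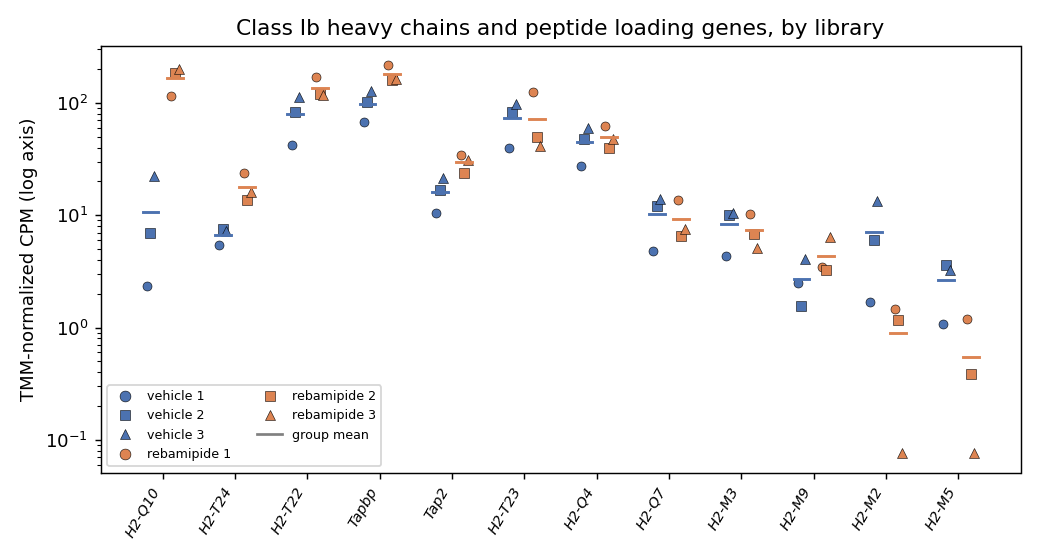
Normalized CPM (log axis) of 10 class Ib heavy chains and of Tapbp and Tap2 in each library, with bars at group means. H2-Q10, H2-T24, H2-T22, Tapbp and Tap2 have no overlap between groups on the higher side, H2-M2 has none on the lower side, and H2-M2 and H2-M5 stand at 0.07633 CPM in rebamipide 3.

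On the class II side, the chains of the I-A molecule and the invariant chain carried most of the signal. H2-Ab1, the I-A beta chain, had 109.2, 253 and 316.2 CPM in the vehicle libraries and 215.3, 105.6 and 72.2 CPM in the rebamipide libraries. H2-Aa, the I-A alpha chain, had 153.1, 383.4 and 436.3 CPM against 328.2, 176.5 and 115.8 CPM. In both genes rebamipide 1 lay between vehicle 1 and vehicle 2, and rebamipide 3 alone for H2-Aa, with rebamipide 2 as well for H2-Ab1, lay below all vehicle libraries. The log2 fold changes were -0.79 ± 0.54 for H2-Ab1 (adjusted p = 0.311, edgeR) and -0.65 ± 0.53 for H2-Aa (adjusted p = 0.388).

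H2-Eb1, the I-E beta chain, had 105.4, 255.1 and 318.3 CPM under vehicle and 227.6, 130.3 and 91.21 CPM under rebamipide (log2 fold change -0.60 ± 0.51, adjusted p = 0.406, edgeR). Its partner chain H2-Ea had 0 counts in all 6 libraries, which allows up to 0.0601 to 0.117 CPM. C57BL/6 mice are known not to express this gene and so carry no I-E on the cell surface. H2-Eb2 was at 2 to 68 counts (log2 fold change -2.07 ± 1.14, adjusted p = 0.219, edgeR). Cd74 had 188.9, 480.2 and 587.1 CPM against 392.2, 210.3 and 134.9 CPM, with overlapping groups and a log2 fold change of -0.77 ± 0.55 (adjusted p = 0.33, edgeR).

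H2-DMa, H2-DMb1 and Ciita ranked the libraries within each group as the class II chains did. H2-DMa had 12.32, 29.04 and 34.92 CPM under vehicle and 28.81, 11.38 and 5.61 CPM under rebamipide, and H2-DMb1 had 15.54, 26.3 and 30.88 CPM against 24.86, 11.3 and 6.869 CPM. Log2 fold changes were -0.73 ± 0.67 for H2-DMa (adjusted p = 0.437, edgeR), -0.76 ± 0.53 for H2-DMb1 (adjusted p = 0.315), -1.11 ± 0.95 for H2-DMb2 (adjusted p = 0.407) and -0.55 ± 0.62 for H2-Ob (adjusted p = 0.536), one chain of the H2-DO molecule that restrains H2-DM. H2-DMa overlaps Brd2, a gene with a mean of 6226 counts on the opposite strand, and H2-DMb1 and H2-DMb2 share 11.3% and 10.3% of their 100-base stretches with other genes. Ciita, the class II transactivator, had 5.769, 16.28 and 17.47 CPM against 10.31, 6.742 and 2.671 CPM, the lowest level of all in rebamipide 3 and a log2 fold change of -1.0 ± 0.62 (adjusted p = 0.267, edgeR). Ciita overlaps Dexi, a gene with a mean of 516 counts on the opposite strand, and the counts of Ciita itself were 70 to 817. In all 10 class II genes rebamipide 1 was the highest of the rebamipide libraries and vehicle 1 the lowest of the vehicle libraries. Leaving out rebamipide 1, DESeq2 gave 3 class II genes lower (H2-Ab1, H2-DMa and H2-DMb1), against 25.2% of all genes lower in the same fit. Without vehicle 1 it gave 1, H2-Eb2, against 13.1% of all genes. edgeR gave 0 class II genes in both cases. The class II median was -1.38 without rebamipide 1 and -0.44 without rebamipide 3 (edgeR).

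The remaining 15 genes did not pass the expression filter. They were 12 class I genes (H2-Bl, H2-M1, H2-M10.1 to H2-M10.6, H2-M11, H2-Q1, H2-Q2 and H2-T3), the class II genes H2-Ea and H2-Oa, and H2-Ke6. The highest count among them was 29, for H2-Q1 in vehicle 2, and 4 of the H2-M10 genes were at 0 in all libraries.

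The classes were then compared within each library, where differences in depth and scaling cancel. The FPKM ratio of Cd74 to B2m was 0.272, 0.321 and 0.294 in the vehicle libraries and 0.187, 0.156 and 0.117 in the rebamipide libraries. The 3 rebamipide values lay below all 3 vehicle values, although the CPM of both genes overlapped. The means were 0.296 ± 0.0244 and 0.154 ± 0.0348 (SD, n = 3 each). By the means of the log2 ratios the ratio was 1.96-fold lower. The difference of -0.97 on the log2 scale gave p = 0.1 in a two-sided exact permutation test, the smallest p-value that 3 against 3 libraries allow. The second pair tested, H2-Ab1 over H2-K1, had ratios of 0.366, 0.487 and 0.457 against 0.301, 0.209 and 0.18, a log2 difference of -0.95, also at the smallest p of 0.1 (exact permutation test), and 2 pairs were tested in all, so both p-values are also 0.1 after Benjamini-Hochberg adjustment. Without rebamipide 3 the Cd74 to B2m difference was -0.79.

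The sums gave a like difference, but they include the abundant genes of both pairs and are not separate evidence. The 6 class II chain and Cd74 genes together had an FPKM of 0.334, 0.419 and 0.382 of that of the 28 class I heavy chain and B2m genes in the vehicle libraries, and of 0.247, 0.198 and 0.151 in the rebamipide libraries, a 1.94-fold lower ratio without overlap. Gene by gene, the FPKM ratio to B2m was lower in every rebamipide library for 8 of the 10 class II genes tested, against 23.6% of all genes. The exceptions were H2-Eb2 and H2-DMb2. Of the 20 class I genes other than B2m that were tested, 5 were lower relative to B2m without overlap (Nlrc5, H2-M2, H2-M3, H2-M5 and H2-Q7) and 5 were higher (Tap2, Tapbp, H2-Q10, H2-T22 and H2-T24, against 8.29% of all genes). The ratio of the regulators, Ciita over Nlrc5, was 0.299, 0.362 and 0.365 under vehicle and 0.289, 0.263 and 0.156 under rebamipide, lower in every rebamipide library with a narrow gap between vehicle 1 and rebamipide 1, and Ciita is the gene that overlaps Dexi. Among the class II genes themselves the ratio of Cd74 to H2-Ab1 lay between 2.65 and 3.05 and overlapped, and that of H2-Eb1 to H2-Ab1 was 1.28, 1.33 and 1.33 against 1.4, 1.63 and 1.67.

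Markers of the cells that make class II molecules were read from the same libraries. Of the 9 macrophage genes 0 passed the test in edgeR (1 was lower at an unadjusted p-value under 0.05, Mrc1, with Cd163 and Csf1r next by p-value and not under it), Lyz2 had the highest FPKM, all 9 log2 fold changes were negative with a median of -0.48, and the summed level was 585, 1210 and 1338 CPM in the vehicle libraries and 1221, 512.7 and 322.1 CPM in the rebamipide libraries. Within each group this ranked the libraries as the class II genes did, with vehicle 1 lowest and vehicle 3 highest, and rebamipide 1 highest and rebamipide 3 lowest, although the order across the groups was not the same. The summed level of all 12 class II genes was 592.5, 1453 and 1757 CPM against 1235, 656.7 and 431.3 CPM. The sum of the 6 class II chain and Cd74 genes, relative to the macrophage sum (FPKM), was 0.727, 0.902 and 1.03 in the vehicle libraries and 0.684, 0.92 and 0.935 in the rebamipide libraries, and the groups overlapped. It also overlapped over the dendritic cell list (22.6, 19.7 and 15.9 against 18.5, 23.1 and 21.7). Without Zbtb46, the gene of that list that rose, these ratios were 24.1, 20.2 and 16.4 against 20.7, 39.7 and 79.4, still overlapping but higher in rebamipide 2 and rebamipide 3 than in any vehicle library. The groups overlapped over the pan-leukocyte list (7.61, 8.6 and 8.43 against 6.65, 10.1 and 11.4) and the T cell list. Relative to Ptprc alone, the leukocyte gene that encodes CD45, Cd74 was higher in every rebamipide library (FPKM ratio 255, 199 and 207 against 414, 372 and 584). The class I sum was 2.18, 2.15 and 2.69 times the macrophage sum under vehicle and 2.77, 4.65 and 6.21 times under rebamipide, higher in every rebamipide library. Gene by gene, the ratio to the macrophage list was higher in every rebamipide library for 9 of 21 class I genes and 0 of 10 class II genes, against 12.9% of all genes, and lower for 2 of 21 and 1 of 10, against 11%. The part of these cells in the class II levels was not tested.

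**Figure D4:**
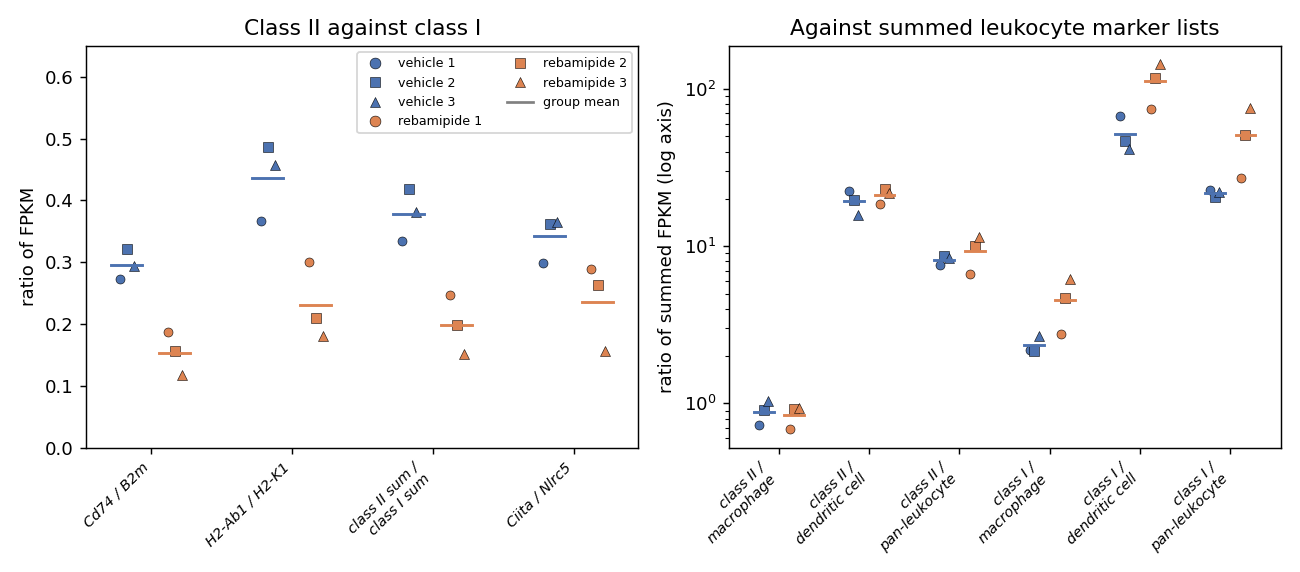
Left, FPKM ratios of class II to class I genes in each library, and right, ratios of the class II and class I sums to the macrophage, dendritic cell and pan-leukocyte lists (log axis), with bars at group means. The 4 ratios on the left are lower in every rebamipide library (Cd74 over B2m 0.272 to 0.321 against 0.117 to 0.187), whereas on the right the class II ratios to these 3 lists overlap between groups and the class I ratios do not.

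Other marker lists placed these levels in the tissue, and their calls stand beside 14.1% of all genes higher and 6.51% lower. The dendritic cell list had 1 of 8 genes higher, Zbtb46 (log2 fold change 2.25 ± 0.43, adjusted p = 0.0195, edgeR), which is also known from endothelium, and a median of -1.06. Xcr1 was lower at an unadjusted p-value under 0.05 (log2 fold change -1.88, adjusted p = 0.0786, edgeR), and Cd209a, with the highest FPKM, was at -1.41 (adjusted p = 0.343). The list had a summed level of 26.5 to 99.77 CPM under vehicle and 58.73 to 74.95 CPM under rebamipide. The Langerhans cell markers Cd207, which encodes langerin, and Epcam had log2 fold changes of -2.08 ± 1.49 and -2.61 ± 1.34 (adjusted p = 0.33 and 0.195, edgeR), and Cd207 was at 0 in rebamipide 3. The third gene placed on that list, Cd1d1, rose. It is also one of the class I-like genes below, where it moved with the endothelial and adipocyte lists. In the pan-leukocyte list 0 of 5 genes passed (1 was lower at an unadjusted p-value under 0.05, Ptprc, with Cd53 and Coro1a next and not under it), with a median of -0.74 and summed levels of 84.69 to 227.6 CPM and 39.99 to 190.8 CPM. The T cell list, with 5 of 6 genes in the table, also had 0 calls and a median of -0.77 at 9.535 to 28.55 CPM against 3.778 to 14.98 CPM. Cd3g, a chain of the T cell receptor complex, was lower at an unadjusted p-value under 0.05 (log2 fold change -1.75, adjusted p = 0.103, edgeR), while Cd3d, Cd3e and Cd2 were at -0.92, -0.77 and -0.40. Of the B cell genes 2 of 4 were tested, Cd79a rose and Cd79b had a log2 fold change of 0.67 (adjusted p = 0.408, edgeR), all 4 together reaching at most 3.396 CPM.

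Lists of structural cells had medians from -2.56 to 6.23, and of all genes tested 14.1% were called higher and 6.51% lower. The endothelial list had 3 of 5 genes higher (Kdr, Cdh5 and Emcn), a median of 1.43 and a summed level of 202.7 to 471.4 CPM against 968.7 to 1409 CPM. The adipocyte list had 4 of 5 higher (Lipe, Pparg, Plin1 and Adipoq) with a median of 2.61, and the brown adipocyte list 4 of 5, among them Otop1, Ucp1 and Cidea, with a median of 6.23. Basal and suprabasal keratinocyte and fibroblast lists had 0 of 5 called each, with medians of -2.56, -2.29 and -1.23, and fast muscle 0 of 5 with a median of -0.40 and levels from 221.1 to 27480 CPM under rebamipide. At an unadjusted p-value under 0.05 Trp63 of the basal list and Lum and Dcn of the fibroblast list were lower (log2 fold changes -3.07, -1.56 and -1.35, adjusted p = 0.102, 0.103 and 0.11, edgeR). The class I sum relative to the endothelial list was 20.4, 27.6 and 22.8 under vehicle and 12.3, 6.66 and 4.94 under rebamipide, so it was lower in every rebamipide library, the opposite of its ratio to the macrophage list. The class II sum relative to the endothelial list was 6.8, 11.6 and 8.73 under vehicle and 3.03, 1.32 and 0.744 under rebamipide. It was also lower without overlap, by 6.14-fold, against 3.17-fold for class I. Relative to the basal keratinocyte list the class II sum was 0.248, 0.353 and 0.507 against 1.09, 1.08 and 663, higher without overlap. The class I sum was 0.742, 0.842 and 1.33 against 4.41, 5.44 and 4400, also higher without overlap. In rebamipide 3 this list summed to only 0.2116 FPKM.

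**Figure D5:**
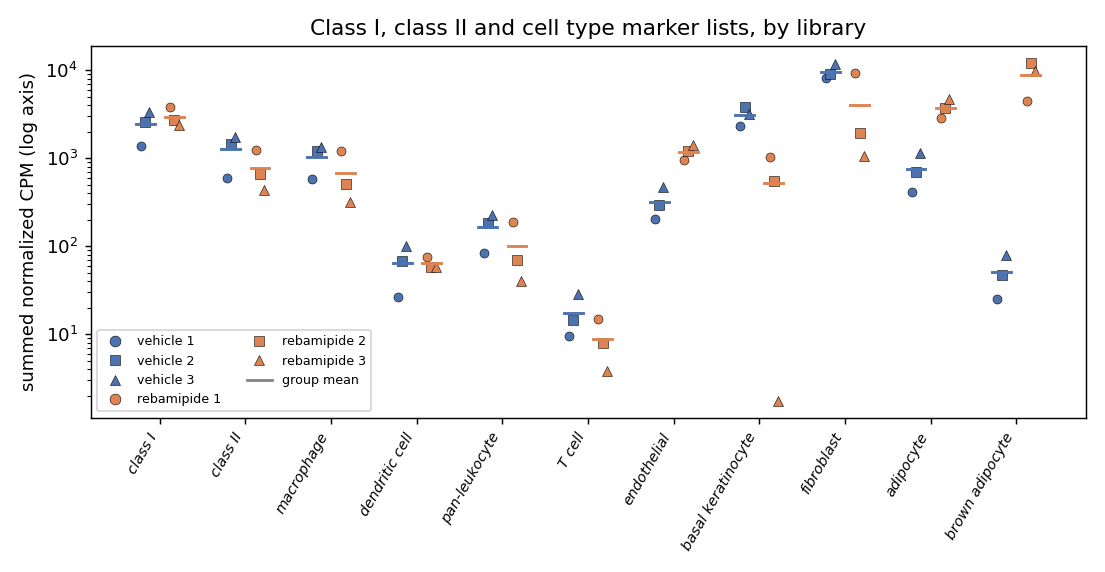
Summed normalized CPM (log axis) of the class I genes, the class II genes and cell type marker lists in each library, with bars at group means. The class II and macrophage sums rank the libraries alike within each group, endothelial, adipocyte and brown adipocyte sums are higher in every rebamipide library, and the basal keratinocyte sum is 1.755 CPM in rebamipide 3.

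Genes that supply peptide to class I molecules were mixed. Of 12 genes 1 rose and 1 fell, against 14.1% and 6.51% of all genes, with a median of 0.20. Psme2, a subunit of the PA28 proteasome activator, rose from 61.1 ± 17.3 to 112.5 ± 4.48 CPM (SD, n = 3 each), by 0.88 ± 0.24 on the log2 scale (adjusted p = 0.0482, edgeR). Pdia3, the ERp57 subunit of the peptide loading complex, was at 471.6 ± 56.2 CPM under vehicle and 260 ± 30.6 CPM under rebamipide (SD), and fell by 0.86 on the log2 scale (SE 0.22, adjusted p = 0.0399, edgeR). Without rebamipide 3 neither passed, at 0.88 for Psme2 and -0.77 for Pdia3 (adjusted p = 0.12 and 0.146, edgeR). With other single libraries left out, Psme2 passed only without vehicle 3 (adjusted p = 0.0275) and Pdia3 only without rebamipide 1 (adjusted p = 0.0277, edgeR). Psme1, the partner of Psme2, had a log2 fold change of 0.78 ± 0.23 without overlap (adjusted p = 0.0575, edgeR). The chaperone Calr had the highest FPKM of the list, with a log2 fold change of -0.35 ± 0.25 (adjusted p = 0.318, edgeR).

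Of 8 genes of class II peptide supply and turnover 2 rose and 0 fell, against 14.1% and 6.51% of all genes, with a median of -0.32 (Ctsl was lower and Marchf8 higher at an unadjusted p-value under 0.05, and neither passed the adjusted test, edgeR). The genes that rose encode the lysosomal proteases cathepsin B and cathepsin D. Ctsb stood at 1054 ± 70.6 CPM under vehicle and 2153 ± 271 CPM under rebamipide (SD, n = 3 each), a log2 fold change of 1.03 ± 0.26 (adjusted p = 0.0398, edgeR), and Ctsd at 356.6 ± 44.1 and 653.9 ± 73 CPM, a log2 fold change of 0.87 ± 0.23 (adjusted p = 0.0431, edgeR). Without rebamipide 3 they were at 0.95 and 0.84 and did not pass (adjusted p = 0.118 and 0.127, edgeR). Nor did they pass without vehicle 1 (adjusted p = 0.0715 and 0.0732, edgeR), vehicle 2, vehicle 3 (adjusted p = 0.081 and 0.0638) or rebamipide 2. Both passed without rebamipide 1 (adjusted p = 0.0225 and 0.0258, edgeR). Ctss, which trims the invariant chain in antigen presenting cells, ranked the libraries within each group as the class II genes did, with 42.51, 98.83 and 106.8 CPM in the vehicle libraries and 102.5, 39.44 and 17.86 CPM in the rebamipide libraries (log2 fold change -0.63 ± 0.67, adjusted p = 0.504, edgeR).

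Of 12 factors reported here and known from the promoters of class II or class I genes, 1 rose and 1 fell, with a median of -0.08. Of all genes tested 14.1% rose and 6.51% fell. Rfxank, a subunit of the RFX complex that binds the X box, rose from 7.236 ± 0.483 to 20.27 ± 4.38 CPM, by 1.49 ± 0.26 on the log2 scale (adjusted p = 0.0157, edgeR). The other RFX subunits did not pass the test, with -0.51 ± 0.29 for Rfx5 and 0.34 ± 0.21 for Rfxap. Creb1 was at 30.69 ± 3.85 CPM under vehicle and 11.29 ± 3.26 CPM under rebamipide and fell by 1.44 on the log2 scale (SE 0.29, adjusted p = 0.0227, edgeR). Without rebamipide 3 Rfxank passed narrowly (1.42, adjusted p = 0.0496, edgeR) and Creb1 did not (-1.54, adjusted p = 0.051). Nfyc, a subunit of NF-Y and the gene of the list with the highest mean FPKM, had a log2 fold change of 0.66 ± 0.21 (adjusted p = 0.0701, edgeR).

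Of 7 interferon gamma pathway genes reported here 6 were tested, and 0 rose and 1 fell, against 14.1% and 6.51% of all genes. Jak2, a kinase of the receptor, fell by 1.37 on the log2 scale (SE 0.27, adjusted p = 0.0211, edgeR, and -1.31, adjusted p = 0.0652, without rebamipide 3), and the median over the 6 genes was -0.66. Socs3 and Ifngr1, the latter with the highest FPKM, had log2 fold changes of -1.18 and 0.65 (adjusted p = 0.149 and 0.232, edgeR). Ifng itself was not tested, at no more than 0.1624 CPM in any library. Among 10 interferon-induced genes 1 rose and 0 fell, against 14.1% and 6.51% of all genes, with a median of 1.26. It was Cxcl9, a chemokine that attracts T cells, which went from 3.718 ± 0.296 to 32.43 ± 4.69 CPM, by 3.12 ± 0.23 on the log2 scale (adjusted p = 0.00939, edgeR, and 0.0206 without rebamipide 3). Igtp, Gbp3 and Gbp2, 3 interferon-induced GTPases, had log2 fold changes of 1.48, 1.16 and 0.77 (adjusted p = 0.0587, 0.153 and 0.166, edgeR). Cxcl10, a close relative of Cxcl9, had a log2 fold change of -0.31 ± 0.47 (adjusted p = 0.641, edgeR), and Irf7, Ifit3 and Isg15 were high in rebamipide 1 only, as for Irf7 with 105.2 CPM against 11.53 to 14.7 CPM in the other 5 libraries.

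Class I-like molecules encoded outside the H2 complex also pair with beta 2 microglobulin, except for Procr and Azgp1. Of the 5 tested 2 rose, against 14.1% of all genes, with a median of 0.65. Cd1d1, which presents lipids to NKT cells, had 21.91, 30.74 and 42.02 CPM in the vehicle libraries and 145.9, 284 and 308.2 CPM in the rebamipide libraries, a log2 fold change of 2.96 ± 0.40 (adjusted p = 0.0102, edgeR). Fcgrt, the neonatal Fc receptor, had 55.99, 102.7 and 134.9 CPM against 255.7, 352.8 and 374.3 CPM, a log2 fold change of 1.74 ± 0.37 (adjusted p = 0.0263, edgeR). Without rebamipide 3 Cd1d1 passed (2.78, adjusted p = 0.0247, edgeR) and Fcgrt did not (1.64, adjusted p = 0.0631). Both genes had no overlap between groups and moved with the endothelial and adipocyte lists, whose part in these levels was not tested. Procr, the endothelial protein C receptor, was lower without overlap and did not pass the test (log2 fold change -2.33 ± 0.74, adjusted p = 0.0698, edgeR), and Mr1 and Hfe had log2 fold changes of -0.74 ± 0.37 and 0.65 ± 0.37.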

How the data were processed

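RNA-seq of 6 dorsal skin samples (3 per group) was analysed from 1 table with raw read counts and FPKM for 21959 genes. The authors deposited counts without normalization, and their deposited FPKM could be recomputed from count, gene length and library total (largest relative difference 5.12e-15). The submitters' processing notes name fastp 0.22.0, HISAT2 2.1.0, HTSeq 0.9.1 and GRCm39. Settings for strand and multiply mapped reads are not given in the sources used here. Table columns of annotation were not used, and 0 columns of values were without a sample.

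The groups were tested on counts with edgeR 4.0.16 under R 4.3.3 (TMM, filterByExpr, quasi-likelihood test, Benjamini-Hochberg adjustment over 14875 genes). FPKM served for ratios between genes within a library, with two-sided exact permutation tests for 2 pairs. DESeq2 1.42.0 and limma 3.58.1 (voom, and log2 of FPKM with pseudocounts of 1 and 0.1), other scalings and filters, a replicate block and each library left out in turn were alternatives. DESeq2 with libraries left out, list genes with libraries left out, the hepatocyte list and ratios to marker lists were added after the values were seen. On simulated counts with known changes the direction of each fit was checked. Replicates within a group differed by far more than sampling noise (chi-square over degrees of freedom, 79.9 to 719). A gene with 0 counts allows up to 3 counts, which speaks of counting error alone.

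The genes and lists were chosen with earlier results of these data known. An item of the pathway lists is not reported here and was left out of their counts and medians. Every gene of the set past the filter is named, and, of each list, up to 3 genes by lowest p-value and 1 by highest mean FPKM were to be named, which was not carried through for the keratinocyte, fibroblast and muscle lists. H2-M2, H2-M5, H2-T22 and further list members, such as Rfx5 and Rfxap, were singled out after their values were seen. Promoter windows are RefSeq on GRCm38.p6 and were not mixed with the table's positions. Shared 100-base stretches were counted in GENCODE vM21 transcripts.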

Additional observations from a re-analysis of the deposited data

How the results depend on the processing

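The count of class I genes called higher was 2 in edgeR with TMM, 1 when only library totals were scaled (1258 of all genes higher, 3752 lower), 1 in limma on log2(FPKM + 1), 1 in limma on log2(FPKM + 0.1), and 0 to 2 when single libraries were left out (edgeR). edgeR called 0 genes of any kind higher without vehicle 2 and 1 without rebamipide 2, so the counts there say nothing of these genes. In DESeq2 the class I count was 2 to 6, with 6 without vehicle 3, where 2903 of all genes were higher. The count of class I genes called lower was 0, and 2 in DESeq2, 2 in each limma fit on log2 FPKM (4809 and 4777 of all genes lower), 1 with the thresholds of the study (unadjusted p under 0.05 and a log2 change over 1, 2161 of all genes lower), and 0 to 2 in DESeq2 with single libraries left out. The count of class II genes called lower was 0 under all other settings and 0 to 3 in DESeq2 with single libraries left out, 3 without rebamipide 1, where 4225 of all genes were lower. The cause of these shifts was not tested. Same-numbered libraries of the groups did not deviate together (correlations -0.02, -0.04 and 0.00), so the numbers were not taken to pair the mice. With a replicate block the class I count of higher genes was 1, H2-T24 losing its call (1.38, adjusted p = 0.0815, edgeR), and the Cd74 to B2m difference was -0.97 (p = 0.25, exact, the smallest 3 pairs allow). The Cd74 to B2m difference ran from -1.12 to -0.79 and the class II to class I sum from -1.13 to -0.77 with single libraries left out. Of 24 genes of the other lists called in edgeR, 12 were called without rebamipide 3, 15 without vehicle 1, 20 without vehicle 3, 23 without rebamipide 1, and 0 without vehicle 2 and without rebamipide 2. No result changed its direction past the threshold. The class II median was negative under all alternatives run, from -1.40 to -0.42, and the class I median ran from -0.43 to 0.50. With 3 libraries per group no exact test could pass 0.05. Genes under about 10 counts, such as H2-Oa and the H2-M10 genes, could not be compared at this depth.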
